A study of Mus musculus with 6 samples.

Results

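Heat shock proteins and DNAJ proteins are the chaperones and co-chaperones that fold, refold and hand over other proteins in every compartment of the cell. The genes described here are the protein-coding rows whose symbol belongs to the Hspa, Hspb, Hspd, Hspe, Hsph, Hsp90, Dnaja, Dnajb, Dnajc or Hsf series or is one of Bag1 to Bag6, which gave 84 of the 54532 genes listed. Of these, 66 reached an FPKM of 1 in 3 or more of the 6 libraries and were tested, and 18 did not. FPKM is the number of fragments scaled by gene length and by the size of the library. Levels can then be compared between genes and, as far as that size is set alike, between libraries.

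The study asked how ovarian cancer cells that have met cisplatin, a platinum drug that crosslinks DNA, change macrophages. Poly-T selected RNA was sequenced from cells labelled bone marrow-derived macrophages (BMDMs), of young C57BL/6 mice. The study's methods call the collected cells monocytes, derived from bone marrow. They were collected after co-culture with ID8, an established ovarian cancer line of the mouse. The ID8 cells had been given 40 µM cisplatin in the 3 libraries of the cisplatin group and phosphate-buffered saline (PBS) in the 3 libraries of the PBS group. All 6 libraries therefore came from co-cultures, BMDMs grown alone are not analysed here, and how the BMDMs were parted from the ID8 cells was not stated. The study's methods speak of biological replicates and of cell experiments done in triplicate. They do not give the sex or number of the donor mice, or say whether the 3 libraries of a group came from separate mice or cultures, so p-values measure the spread between these samples, which may be in part technical.

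The reads recovered from the FPKM values numbered 15776238 to 16396353 per cisplatin library and 15907567 to 17924686 per PBS library. The label BMDM was checked against 10 macrophage markers, whose summed FPKM was 4973 to 5168 with cisplatin and 2208 to 2255 with PBS. Of these markers 9 of 10 rose, with a median log2 fold change of 0.90 (-0.090 under the Y-linked scaling described below). Genes of ID8 and mesothelial cells were also read in every library. Their summed FPKM was 176 to 193 with cisplatin and 1004 to 1085 with PBS, and of 12 such genes 8 were tested, of which 7 fell and Cdh1 rose. Krt7, Epcam, Muc16 and Bnc1 lay under the filter, whereas the epithelial keratin gene Krt19 fell from 588 ± 28.8 to 51.1 ± 3.80 FPKM (SD, n = 3).

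Of 4 T cell markers 2 were tested, and the list summed to 10.6 to 11.3 FPKM with cisplatin and 6.24 to 7.10 with PBS. The 4 genes listed from the Y chromosome (Ddx3y, Eif2s3y, Uty and Kdm5d) summed to 41.6 to 42.8 FPKM with cisplatin and 19.5 to 22.7 with PBS. These values moved with the group in the same libraries as every chaperone result below, and their part in those results was not tested. In bulk RNA, fewer cells of a type and less RNA per cell cannot be told apart. Fold changes compare cisplatin with PBS as differences of log2(FPKM + 1), a scale on which low genes appear to change less than they do. They are relative to the library size that the FPKM used. That size was 103.7% to 104.1% of the recovered reads with cisplatin and 97.4% to 98.7% with PBS. With scaling by the recovered reads, the median of all tested genes was 0.073. When libraries were instead scaled to equal levels of the Y-linked genes, the median of all tested genes moved from -0.0011 to -0.83. Under that scaling the log2 fold change of 23 of the 66 tested members turned from positive to negative, and the only positive values left were those of Hspd1, Dnajb13 and Dnajc27. Of these 23, Bag4, Hspa14, Dnajc12, Dnajc17 and Dnajc24 had not passed the adjusted p in the main fit. Dnajb5, Dnajc9 and Hspe1 did not pass it under the Y-linked scaling.

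**Figure D1:**
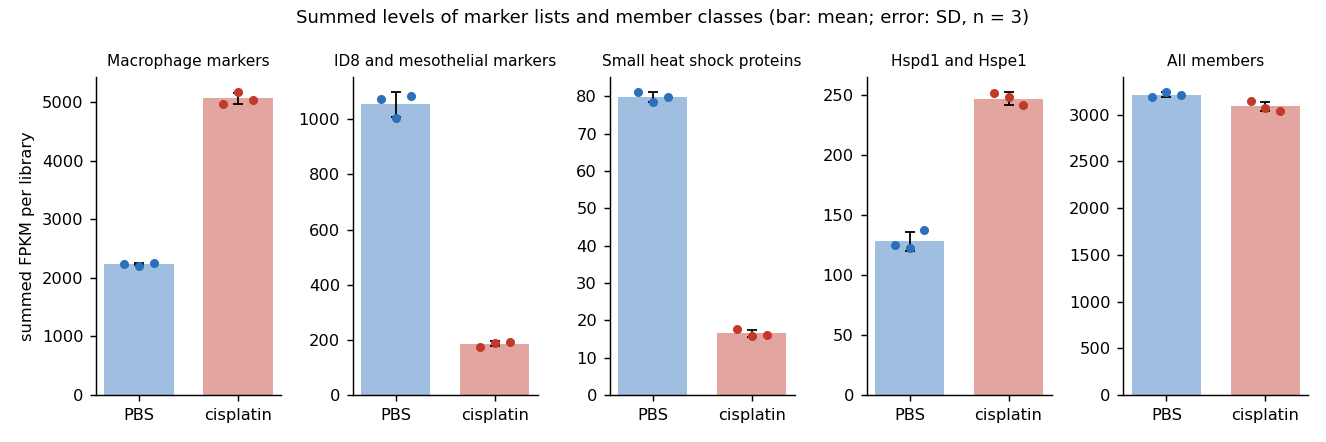
Summed FPKM per library (vertical axes, each starting at 0) of the macrophage markers, the ID8 and mesothelial markers, the small heat shock proteins named Hspb (Hspb11 included, Cryab not), Hspd1 with Hspe1, and all 84 members, by group. Bars are means, error bars SDs (n = 3) and points libraries. The macrophage markers and the Hspd1 and Hspe1 sum were higher with cisplatin, the ID8 markers and the small heat shock proteins were lower, and the sum over all members was 3045 to 3145 with cisplatin and 3192 to 3240 with PBS.

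HSP70 proteins bind short hydrophobic stretches of unfolded chains in a cycle driven by ATP. DNAJ proteins deliver clients and trigger ATP hydrolysis, and HSP110 and BAG proteins exchange the nucleotide so that the client is released. HSP90 takes over clients close to their native state, the HSP60 and HSP10 chaperonin encloses chains inside mitochondria, and small heat shock proteins hold unfolded proteins without ATP. In the cytosol, heat shock factor 1 switches on many of these genes by binding heat shock elements. In the endoplasmic reticulum (ER), the unfolded protein response acts through ER stress elements.

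Promoter windows from RefSeq on GRCm38.p6, 250 bases before to 50 after each start, were found for 67 of the 84 members. A heat shock element, searched on both strands as GAANNTTCNNGAA or TTCNNGAANNTTC, lay in the windows of 4 of the 67 (5.97%), against 0.662% of 27025 genes with a window. The 4 genes were Hspd1, Hspe1, Hsph1 and Dnajb6. An ER stress element, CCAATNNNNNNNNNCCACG on either strand, lay in 3 of the 67 (4.48%), against 0.137% of all genes. These were Hspa5, Hsp90b1 and Dnajc3. A match is a description of letters and not of binding. Only full matches were counted, so a window counted as without an element may hold a near match, as that of Dnajb4 does for the heat shock element. The 250 bases before the start are printed 5′ to 3′ on the gene's strand, with each element in capitals, since these genes recur in the results below. Hspe1 lies at chr1:55087898-55088147 (plus strand), Hspa5 at chr2:34771840-34772089 (plus), Hsp90b1 at chr10:86705445-86705694 (minus) and Dnajc3 at chr14:118937682-118937931 (plus).
Hspe1: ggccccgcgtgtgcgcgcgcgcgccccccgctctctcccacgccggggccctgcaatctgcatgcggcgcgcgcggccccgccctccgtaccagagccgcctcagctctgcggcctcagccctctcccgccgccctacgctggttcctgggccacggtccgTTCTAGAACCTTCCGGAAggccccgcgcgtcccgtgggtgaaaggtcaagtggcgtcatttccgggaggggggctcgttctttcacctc
Hspa5: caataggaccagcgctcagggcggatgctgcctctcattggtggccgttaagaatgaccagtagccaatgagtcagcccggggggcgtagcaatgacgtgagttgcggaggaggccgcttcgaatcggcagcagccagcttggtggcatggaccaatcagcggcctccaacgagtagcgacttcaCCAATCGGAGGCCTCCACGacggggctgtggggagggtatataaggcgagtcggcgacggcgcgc
Hsp90b1: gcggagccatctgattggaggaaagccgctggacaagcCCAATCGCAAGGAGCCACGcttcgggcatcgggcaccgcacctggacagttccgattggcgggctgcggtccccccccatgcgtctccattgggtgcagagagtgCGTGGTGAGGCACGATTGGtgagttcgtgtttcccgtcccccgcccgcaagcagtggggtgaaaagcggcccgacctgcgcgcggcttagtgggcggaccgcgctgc
Dnajc3: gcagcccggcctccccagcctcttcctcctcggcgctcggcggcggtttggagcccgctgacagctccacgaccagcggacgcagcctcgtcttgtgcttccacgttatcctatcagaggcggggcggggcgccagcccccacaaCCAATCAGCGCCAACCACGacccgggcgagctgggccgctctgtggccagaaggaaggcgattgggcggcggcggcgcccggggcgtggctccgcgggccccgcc

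Hspe1 and Hspd1 stand head to head, and their windows share 285 bases on chromosome 1 (55087898 to 55088182). The 18 bases in capitals, which hold 2 overlapping matches to the heat shock element, therefore belong to both windows. Hsp90b1 carried 2 ER stress elements, the second read on the other strand. The Hsph1 element, TTCTGGAAAGTTC, began at base 16 after its first start, and the Dnajb6 element, GAATCTTCCGGAA, began at base -46 before its first start. Of the 4 genes with a heat shock element, 3 rose (Hspd1, Hspe1 and Hsph1) and Dnajb6 fell. Of the 48 tested members with a window and no full match to that element, 12 rose and 26 fell. Over all tested genes 32.9% rose and 35.1% fell at the adjusted p. Of the 3 with an ER stress element, Dnajc3 rose, and Hspa5 and Hsp90b1 fell.

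Among the 66 tested members, 2 were called higher and 7 lower with cisplatin, a call being a Benjamini-Hochberg adjusted p under 0.05 in limma with a change of at least 2-fold on the log2(FPKM + 1) scale. Of the members that passed the adjusted p, Hspa1b, Dnajb2, Dnajc27, Dnajc28 and Bag3 passed 2-fold in mean FPKM and not on that scale. Over all 13441 tested genes the percent called was 4.67 higher and 11.3 lower, against 3.03% and 10.6% of the members. The members counted as higher include Dnajb13, which entered the test only through its cisplatin libraries, so its call was favoured by the filter. At the adjusted p alone, 21 members rose (31.8%) and 31 fell (47.0%), against 32.9% and 35.1% of all tested genes. The count that fell depended on the scaling: 28 with quantile normalisation, 28 with limma voom on the recovered reads and 27 with recovered-read scaling. In those settings 23, 23 and 22 members rose, and the shares of all genes there are not given. The cisplatin libraries lay wholly above the PBS libraries in 22 members (33.3%) and wholly below in 33 of the 66, against 35.2% and 37.2% of all tested genes. The median log2 fold change was -0.14 over the tested members and -0.0011 over all tested genes. Every member is protein-coding, and of the 11335 tested protein-coding genes 3894 rose and 4362 fell at the adjusted p, with a median of -0.022. With libraries scaled by the Y-linked genes the calls were 0 higher and 35 lower, and the members' median was -1.03.

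The 84 members together took between 1.01% and 1.09% of all FPKM in a library. The tested member with the fewest reads had a mean of 39.5 per library. Another gene overlapped 30 of the 66 tested members, 15 of them on their own strand, and their values are less certain. Of the 12 tested members that averaged at least 50 FPKM, 1 was called, and their log2 fold changes ran from -0.33 to 1.01. The other calls were of members of lower level.

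**Figure D2:**
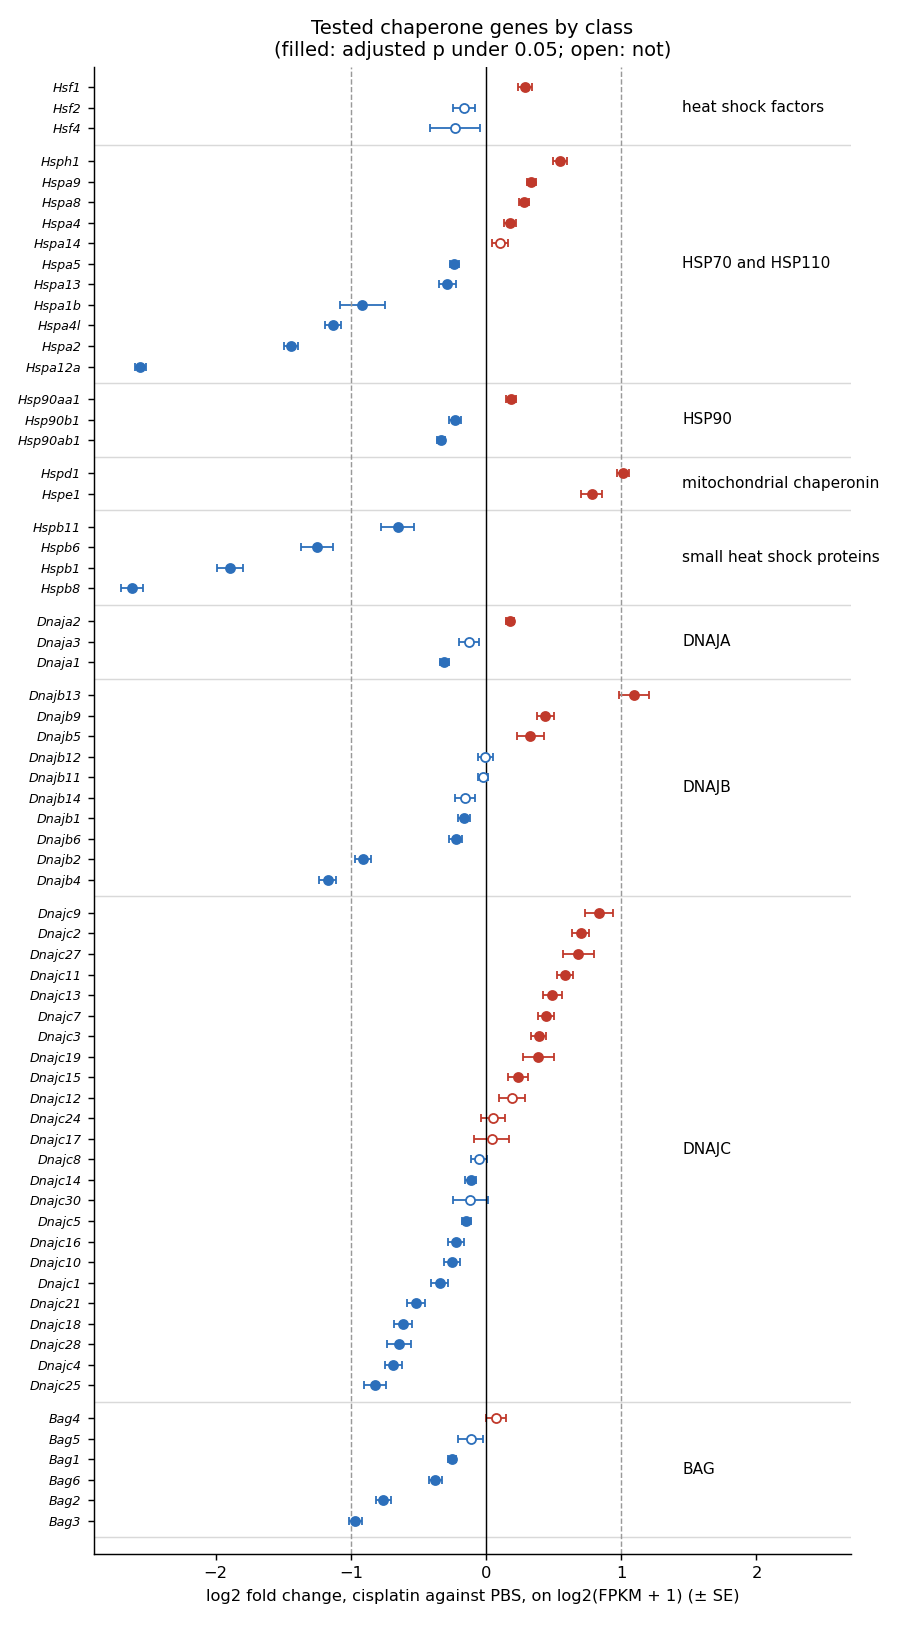
Log2 fold change with its SE (horizontal axis, cisplatin against PBS on log2(FPKM + 1), 3 libraries a group) for each of the 66 tested members, grouped by class. Filled points passed an adjusted p of 0.05, red points are above 0, and dashed lines mark 2-fold on that scale. Hspb8, Hspb1, Hspb6, Hspa12a, Hspa2, Hspa4l and Dnajb4 lie beyond the left-hand line, and Hspd1 and Dnajb13 reach the right-hand line.

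**Figure D3:**
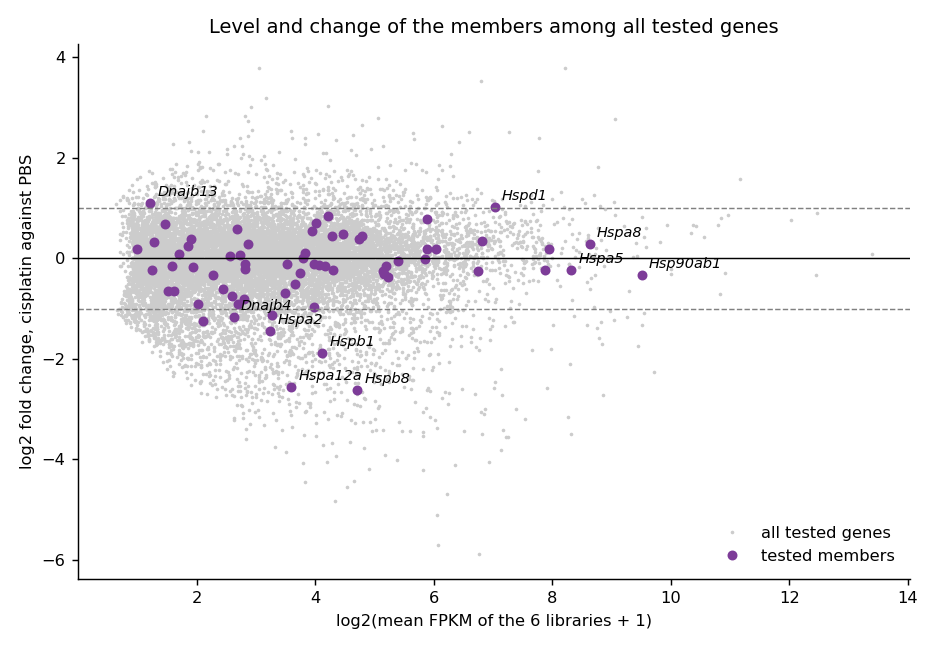
Log2 fold change (vertical axis) against log2 of the mean FPKM of the 6 libraries plus 1 (horizontal axis) for all 13441 tested genes in grey and the 66 tested members in purple. The abundant members lie within 2-fold apart from Hspd1, and the called lower members lie at middle and low levels.

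The heat shock factors are the transcription factors that read the heat shock element. Hsf1, the main activator of the heat shock response (chr15:76477422-76501913, mm10), measured 7.27, 6.80 and 7.13 FPKM in the cisplatin libraries and 5.84, 5.55 and 5.44 in the PBS libraries. Each cisplatin library lay above each PBS library, and Hsf1 rose by 0.29 ± 0.052 (log2 ± SE, limma adjusted p = 0.00221). Hsf2, a factor tied to development and proteasome stress, was 2.60 ± 0.126 with cisplatin and 3.04 ± 0.318 with PBS and did not pass (adjusted p = 0.110). Hsf4, the factor of the lens, averaged 1.16 and 1.57 FPKM with overlapping groups (adjusted p = 0.303). Hsf3 was listed at 0 in all libraries, and Hsf5 and Hsf2bp, the latter a binding partner of Hsf2 taken in by its symbol, were under the filter.

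Of 25 tested genes on a list of known heat shock factor 1 targets, 10 rose and 13 fell at the adjusted p, with a median log2 fold change of -0.12, or -1.10 under the Y-linked scaling. Of these, 1 was called higher (Hspd1) and 4 lower (Hspb8, Hspb1, Hspa4l and Dnajb4). Over all tested genes the shares were 32.9% higher and 35.1% lower at the adjusted p, and 4.67% and 11.3% called. The inducible HSP70 genes were low in both groups. Hspa1b (chr17:34956436-34959238) measured 1.22, 1.85 and 2.48 FPKM with cisplatin and 3.93, 4.12 and 4.83 with PBS, and its log2 fold change was -0.91 ± 0.167 (limma adjusted p = 0.00234). Hspa1a was under the filter, at 0.478 ± 0.0726 and 0.916 ± 0.221 FPKM. The genes are near-identical copies that can share reads, so their sum is the firmer value: 2.33 ± 0.594 FPKM with cisplatin and 5.21 ± 0.665 with PBS. No library of the cisplatin group reached the lowest PBS library in that sum, at 2.95 against 4.60.

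Of the 11 tested HSP70 and HSP110 genes, 4 rose, 6 fell and Hspa14 did not pass (32.9% of all tested genes rose and 35.1% fell), with a median of -0.23, which was -1.21 under the Y-linked scaling. Hspa14, the ribosome-bound partner of Dnajc2, averaged 13.7 ± 0.534 and 12.7 ± 0.805 FPKM with overlapping groups (adjusted p = 0.156). Hspa8, the constitutive cytosolic HSP70, was the most abundant, at 451, 431 and 422 FPKM with cisplatin and 352, 369 and 352 with PBS. The groups did not overlap, and Hspa8 rose by 0.28 ± 0.039 (adjusted p = 0.000608). The snoRNA genes Snord14c, Snord14d and Snord14e lie within it on the same strand. Hspa9, the mitochondrial HSP70 that drives protein import, measured 126, 127 and 121 FPKM against 96.7, 101 and 98.3, a rise of 0.34 ± 0.034 (adjusted p = 0.000123). Every cisplatin library was above every PBS library for Hspa9.

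The nucleotide exchange factors of the HSP110 branch split. Hsph1, the inducible HSP110, measured 16.9, 17.4 and 17.8 FPKM with cisplatin and 10.9, 12.2 and 11.6 with PBS, and rose by 0.55 ± 0.052 (adjusted p = 8.43e-05). Hspa4, its constitutive relative, rose by 0.18 ± 0.047 (61.6 ± 3.18 against 54.3 ± 1.73 FPKM, adjusted p = 0.0133). Hspa4l, the third gene of the branch (chr3:40744495-40796103), went the other way, at 5.37, 4.67 and 5.04 FPKM with cisplatin and 12.1, 12.6 and 11.9 with PBS. Its groups were far apart, and its log2 fold change was -1.13 ± 0.058 (adjusted p = 4.26e-06).

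The largest fall among HSP70 relatives was that of Hspa12a (chr19:58795751-58860984), a distant family member with an atypical ATPase domain. It measured 2.49, 2.54 and 2.51 FPKM with cisplatin and 19.5, 19.9 and 19.5 with PBS. The PBS mean was 7.82 times the cisplatin mean, and the log2 fold change was -2.56 ± 0.042 (adjusted p = 6.08e-08). Hspa2, known for its role in spermatogenesis and found in other tissues too (chr12:76404176-76406938), measured 4.09, 3.94 and 4.26 FPKM against 13.0, 12.3 and 13.2. Its log2 fold change was -1.44 ± 0.052 (adjusted p = 8.19e-07). In both genes the spread within a group was small beside the gap between groups. Hspa12b and Hspa1l were under the filter.

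HSP90 included the most abundant member, Hsp90ab1. This constitutive cytosolic form (chr17:45567775-45573271), measured 641, 652 and 643 FPKM with cisplatin and 813, 807 and 818 with PBS. Hsp90aa1, the stress-inducible cytosolic form (chr12:110690605-110702728), measured 273, 257 and 253 against 228, 234 and 227. The cytosolic pair thus moved apart: Hsp90ab1 fell by 0.33 (SE 0.029, adjusted p = 5.49e-05), and Hsp90aa1 rose by 0.18 (SE 0.038, adjusted p = 0.00435). The ratio of Hsp90aa1 to Hsp90ab1, in which library scaling cancels, was 0.405 ± 0.0177 with cisplatin and 0.283 ± 0.00647 with PBS. The exact two-sided permutation test gave p = 0.1, the smallest that 3 against 3 libraries allow, for this and for each of 5 further ratios (0.1 after adjustment over the 6). None of them can therefore reach 0.05 by that test.

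**Figure D4:**
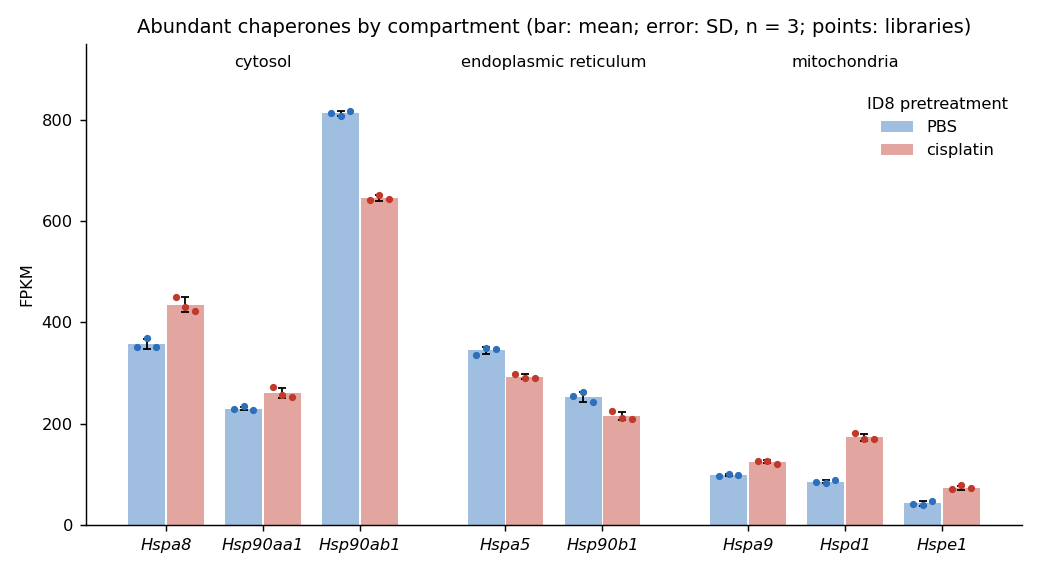
FPKM (vertical axis from 0) of 8 abundant chaperone genes of the cytosol, the ER and the mitochondria, by group. Bars are means, error bars SDs (n = 3) and points libraries. Hsp90ab1, Hspa5 and Hsp90b1 were lower with cisplatin, and Hspa8, Hsp90aa1, Hspa9, Hspd1 and Hspe1 were higher, of which only Hspd1 stayed above 0 when scaled by the Y-linked genes (0.02 on the log2 scale, adjusted p = 0.807).

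The ER chaperones with an ER stress element did not move together. Hspa5 (BiP), the HSP70 of the ER, measured 298, 290 and 291 FPKM with cisplatin and 336, 350 and 347 with PBS. Hsp90b1 (GRP94), the HSP90 of the ER, measured 225, 211 and 210 against 254, 262 and 242. Both fell by 0.23 on the log2 scale, with adjusted p of 0.000535 and 0.00297. Dnajc3 (p58IPK), a co-chaperone that also restrains the kinase PERK, rose instead, from 22.5, 23.2 and 20.7 FPKM with PBS to 30.2, 29.7 and 27.9 with cisplatin (0.39 ± 0.054, adjusted p = 0.000591). Each of these genes had groups that did not overlap.

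The other DNAJ proteins of the ER also differed in direction. Dnajb9 (ERdj4), which supports degradation of misfolded ER proteins, rose by 0.44 ± 0.063 (22.7, 20.3 and 21.6 FPKM against 14.7, 16.8 and 15.4, adjusted p = 0.000741). Dnajc10 (ERdj5), a disulphide reductase, fell by 0.25 (SE 0.058, adjusted p = 0.0073). Dnajb11 (ERdj3), the soluble BiP partner, averaged 56.2 ± 0.933 and 57.1 ± 2.08 FPKM with overlapping groups (adjusted p = 0.621). Hspa13, an ER-linked HSP70 relative, fell from 13.7 ± 0.706 to 11.0 ± 0.753 FPKM (adjusted p = 0.00543), and Dnajc1 fell from 4.42 ± 0.268 to 3.27 ± 0.124 (adjusted p = 0.00262).

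Across a list of 24 ER chaperones and stress genes, 11 rose and 11 fell at the adjusted p (32.9% and 35.1% of all tested genes did), with a median of -0.028, which was 0.028 after quantile normalisation and -0.998 under the Y-linked scaling. Herpud1, a membrane protein of ER-associated degradation, was called higher at 69.8 ± 3.48 against 34.2 ± 1.25 FPKM. P4hb (protein disulphide isomerase) was called lower at 328 ± 8.14 against 679 ± 16.5, as was Sil1, the nucleotide exchange factor of BiP, at 5.67 ± 0.590 against 20.4 ± 1.46. The ratio of Hspa8 to Hspa5 was 1.48 ± 0.0312 with cisplatin and 1.04 ± 0.0212 with PBS.

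The chaperonin of mitochondria held the clearest rise. Hspd1 (HSP60, chr1:55077835-55088243), the subunit of the barrel, measured 181, 170 and 169 FPKM with cisplatin and 84.3, 82.9 and 89.6 with PBS. Hspe1 (HSP10, chr1:55088132-55091307), the lid, measured 70.4, 78.0 and 72.6 against 40.8, 39.3 and 47.6. In both genes the lowest cisplatin library lay well above the highest PBS library. Hspd1 rose by 1.01 ± 0.045 (2.03-fold, adjusted p = 2.14e-06) and Hspe1 by 0.78 ± 0.077 (adjusted p = 0.000104), while under the Y-linked scaling they stood at 0.02 and -0.20. The call of Hspd1 sat at its threshold: without cisplatin replicate 1 its log2 fold change was 0.98, and without PBS replicate 2 it was 0.99. The gene bodies overlap at their shared promoter on opposite strands, and the strand setting of the counting was not stated.

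Hspd1 exceeded its lid by a ratio of 2.36 ± 0.199 with cisplatin and 2.02 ± 0.119 with PBS. Against BiP, the ratio of Hspd1 to Hspa5 was 0.592 ± 0.0147 with cisplatin and 0.248 ± 0.0108 with PBS, and that of Hspa9 to Hspa5 was 0.426 ± 0.00974 and 0.286 ± 0.00277. Of 18 mitochondrial chaperones and proteases, 10 rose and 3 fell (32.9% and 35.1% of all tested genes did), with a median of 0.25, which was -0.68 under the Y-linked scaling. Lonp1, the protease of the matrix, went against most of the list, at 32.1 ± 1.49 FPKM with cisplatin and 88.6 ± 4.04 with PBS, a log2 fold change of -1.44 ± 0.050 (adjusted p = 6.98e-07). Dnajc11, Dnajc19 and Dnajc15, DNAJ proteins tied to cristae or to the import motor, rose by 0.59, 0.39 and 0.24 (adjusted p = 0.000141, 0.0212 and 0.0232). Dnaja3 and Dnajc30 did not pass (adjusted p = 0.184 and 0.455).

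Of the classes with at least 4 tested members, the small heat shock proteins named Hspb had the lowest median. All 4 tested fell (35.1% of all tested genes did), with a median of -1.57 under the main scaling and -2.38 under the Y-linked scaling, and their class summed to 15.7 to 17.6 FPKM with cisplatin and 78.5 to 81.1 with PBS. With Cryab added and Hspb11 left out (both described below), the sum was 26.1 to 29.6 with cisplatin and 90.6 to 96.0 with PBS. Hspb8, which works with Bag3 in chaperone-assisted autophagy (chr5:116408491-116422864), measured 7.24, 6.21 and 5.59 FPKM with cisplatin and 44.9, 43.7 and 42.8 with PBS. Hspb1 (HSP27), which also binds actin filaments (chr5:135887919-135889563), measured 6.22, 5.67 and 7.22 against 25.8, 24.2 and 29.0. Both genes had PBS libraries several times above any cisplatin library. Hspb8 changed by -2.61 ± 0.081 (adjusted p = 4.38e-07) and Hspb1 by -1.89 ± 0.095 (adjusted p = 3.81e-06).

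Hspb6 (HSP20), best known from muscle, measured 1.53, 1.77 and 1.34 FPKM with cisplatin and 5.63, 5.45 and 4.18 with PBS. Its log2 fold change was -1.25 ± 0.117 (adjusted p = 8.29e-05), and the genes Lin37 and Proser3 overlap it on the other strand and the gene model Gm38670 on its own, so its value is less certain. Hspb11, an intraflagellar transport protein despite its symbol, fell by 0.65 (1.38 ± 0.311 against 2.73 ± 0.306 FPKM, adjusted p = 0.00267), and Gm12850 overlaps it on its own strand. Cryab (HspB5), a main small heat shock protein that the symbol rule does not take in, fell less, from 16.0 ± 1.81 to 12.2 ± 1.29 FPKM (-0.36 ± 0.098, adjusted p = 0.0139). Hspb2, Hspb3, Hspb7 and Hspb9 were not tested, with group means of at most 1.34 FPKM. The ID8 and mesothelial markers fell in the same libraries, with a median log2 fold change of -2.09 over the 8 tested.

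**Figure D5:**
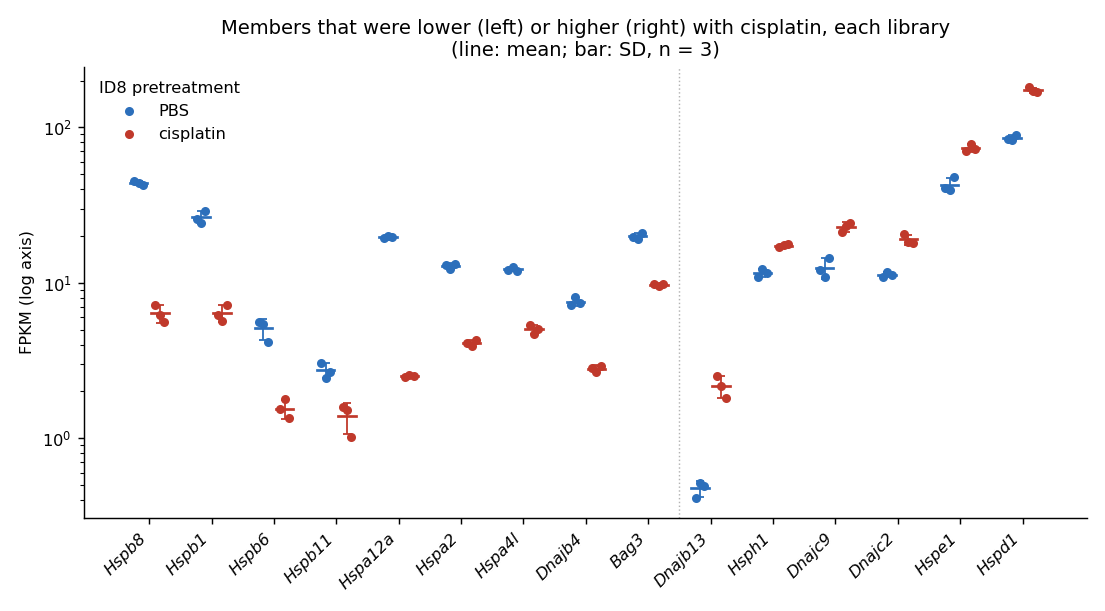
FPKM of each library (vertical log axis) for 15 members, the 9 on the left lower with cisplatin and the 6 on the right higher. Points are libraries, lines means and bars SDs (n = 3). Hspb8 and Hspa12a show the widest gaps. In none of the 15 do the groups overlap, but they were picked from members that differed at the adjusted p, so this is no test. The groups also did not overlap in 35.2% (higher) and 37.2% (lower) of all tested genes.

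BAG proteins release clients from HSP70 and steer them to particular fates. Of the 6, 4 fell and 2 did not pass (35.1% of all tested genes fell), with a median of -0.31, or -1.29 under the Y-linked scaling. Bag3, the autophagy partner of Hspb8 (chr7:128523616-128546981), measured 9.80, 9.51 and 9.81 FPKM with cisplatin and 19.7, 19.0 and 21.0 with PBS. Its PBS mean was 2.05 times the cisplatin mean, and its log2 fold change of -0.97 ± 0.048 (adjusted p = 3.58e-06) stopped just short of the call. The gene 2610306O10Rik overlaps Bag3 on its own strand, so its value is less certain. Bag2, an inhibitor of the ubiquitin ligase CHIP, measured 3.44, 3.56 and 3.42 FPKM against 6.28, 6.76 and 6.68, a fall of 0.76 on the log2 scale (adjusted p = 1.99e-05).

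Smaller falls were seen in the abundant BAG genes. Bag6, which guides tail-anchored and mislocalised proteins, fell from 41.3 ± 1.70 to 31.7 ± 1.12 FPKM (-0.37, adjusted p = 0.000305). Bag1, which links HSP70 to the proteasome, fell from between 114 and 117 FPKM to between 95.5 and 98.3 (-0.25, adjusted p = 0.000264). For Bag4 and Bag5 the groups overlapped, with adjusted p of 0.399 and 0.291.

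The 3 tested DNAJA genes, the closest relatives of bacterial DnaJ differed in direction. Dnaja1 measured 30.2, 31.5 and 31.1 FPKM with cisplatin and 38.2, 38.5 and 38.9 with PBS, and fell by 0.31 (SE 0.033, adjusted p = 0.000169). Dnaja2 measured 69.8, 68.3 and 69.4 against 60.1, 60.7 and 62.0, and rose by 0.18 (SE 0.030, adjusted p = 0.00156). Neither pair of groups overlapped. Dnaja3, the mitochondrial form, did not pass, and Dnaja4 was under the filter.

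Of the 10 tested DNAJB genes, 3 rose, 4 fell and 3 did not pass, shares near those of all tested genes (32.9% and 35.1%). Their median was -0.089, against 0.021 after quantile normalisation and -0.97 under the Y-linked scaling. Dnajb1 (HSP40), the classic partner of HSP70 in the heat shock response, measured 15.3, 15.9 and 16.6 FPKM with cisplatin and 18.2, 18.1 and 17.7 with PBS, a fall of 0.16 (SE 0.043, adjusted p = 0.0127). The ratio of Dnajb1 to Hspa8 went from 0.0503 ± 0.00127 with PBS to 0.0368 ± 0.00273 with cisplatin. Dnajb4, a close relative of Dnajb1 (chr3:152178511-152210302), fell more, from 7.22, 8.08 and 7.39 FPKM to 2.84, 2.65 and 2.92. Its log2 fold change was -1.17 ± 0.063 (adjusted p = 5.47e-06), and its cisplatin libraries did not approach the PBS libraries.

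Dnajb13, a protein of the sperm flagellum and of motile cilia (chr7:100501716-100514960), was the other member called higher. It measured 2.52, 2.16 and 1.82 FPKM with cisplatin and 0.414, 0.517 and 0.496 with PBS, a log2 fold change of 1.10 ± 0.111 (adjusted p = 0.000122). It passed the filter only through the cisplatin libraries, so it had to differ to be tested, and its p-value is no support for the rise. It lies over Ucp2 on the opposite strand, which rose from 33.7 ± 0.476 to 47.5 ± 0.835 FPKM, and without a stated strand setting the reads of the pair cannot be told apart. Dnajc12 also passed only through the cisplatin libraries and was not past the adjusted p (0.118). Dnajb2, a neuronal co-chaperone with ubiquitin-interacting motifs, fell by 0.91 (3.50 ± 0.188 against 7.46 ± 0.304 FPKM), and Dnajb6, an aggregation suppressor, fell by 0.23. Dnajb5 rose by 0.33 (adjusted p = 0.024).

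The DNAJC class gathers proteins that share little beyond the J domain. Of 24 tested, 9 rose, 10 fell and 5 did not pass, beside 32.9% and 35.1% of all tested genes. Their median was -0.0055, against 0.018 with no filter and -0.88 under the Y-linked scaling. None was called, although Dnajc27 was 2.15-fold higher and Dnajc28 2.02-fold lower in mean FPKM. With a pseudocount of 0.1 and with limma voom on the recovered reads, Dnajc27 was called higher. Dnajc9, a histone chaperone of the nucleus, measured 21.2, 23.1 and 24.4 FPKM with cisplatin and 12.0, 10.8 and 14.5 with PBS, a rise of 0.84 ± 0.104 (adjusted p = 0.000348). Dnajc2 (zuotin), a chaperone at the ribosome, measured 20.6, 18.4 and 17.9 against 10.9, 11.8 and 11.2, a rise of 0.70 ± 0.062 (adjusted p = 6.08e-05). Both had groups well apart. Dnajc7, which binds HSP70 and HSP90 at once, rose by 0.44 ± 0.061 (31.0 ± 1.55 against 22.6 ± 1.55 FPKM, adjusted p = 0.00058), and Cnp and Nkiras2 overlap it on the other strand.

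Further rises were those of Dnajc27, a small GTPase with a J domain (0.68), and Dnajc13, a protein of endosomes (0.49). The falls were led by Dnajc25 (-0.82), Dnajc4 (-0.69), Dnajc28 (-0.65), Dnajc18 (-0.61) and Dnajc21 (-0.52), each with cisplatin libraries wholly below PBS libraries. Dnajc25 overlaps the gene model Gm20503 on its own strand, so its value is less certain. Dnajc5, the cysteine string protein of vesicles, fell by 0.14 from 37.7 ± 0.435 to 34.0 ± 0.236 FPKM (adjusted p = 0.00501). Dnajc16, Dnajc14, Dnajc10 and Dnajc1 made up the rest of the falls. Dnajc8, Dnajc17 and Dnajc24 did not pass, like Dnajc12 and Dnajc30. Members of this class and others outside the naming rule were chosen after their values were seen.

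Partners outside these families were read from lists. Of 18 HSP90 and HSP70 co-chaperones, 9 rose and 4 fell (32.9% and 35.1% of all tested genes did), with a median of 0.16 that was -0.78 under the Y-linked scaling. Fkbp5, the immunophilin of steroid receptor complexes, was called lower at 11.0 ± 0.258 against 28.5 ± 1.06 FPKM. Of 14 subunits of TRiC and prefoldin, the chaperonin of the cytosol and its feeder, 8 rose and 2 fell, none was called (4.67% and 11.3% of all tested genes were, higher and lower), and the median of 0.17 was -0.81 under the Y-linked scaling.

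Of the 18 members that were not tested, Hsf3, Hspb3 and Dnajc5b were listed at 0 in every library. Dnajc22 was at 0.205 ± 0.0654 FPKM with cisplatin and 1.09 ± 0.246 with PBS, and Dnajc6, the auxilin that uncoats clathrin vesicles, was at 0.820 ± 0.0693 and 0.288 ± 0.0375. The groups did not overlap in 9 of the 18, higher with cisplatin in 5 (Hsf5, Hspa1l, Dnaja4, Dnajb7 and Dnajc6) and lower in 4 (Hspa1a, Hspb2, Hspb7 and Dnajc22). Of the 19473 untested genes above 0 in any library the shares were 10.1% and 8.28%. The rest were Hspa12b, Hspb9, Hsf2bp, Dnajb3, Dnajb8 and Dnajc5g, of which Hspb9 had the highest group mean, 1.34 FPKM. At such levels differences between the groups were not tested.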

How the data were processed

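RNA was sequenced from 6 co-culture libraries, 3 a group. The deposited table gives FPKM for 54532 genes with coordinates and lengths. Per the submitters' processing notes, the authors used fastp, HISAT2 2.0.5 and featureCounts 1.5.0-p3 on mm10, whereas the study's methods name LifeScope and DESeq2. The strand setting was not given in the sources used here. Values multiplied by gene length were whole multiples of a step in 100% of values under 200 reads (tolerance 0.02 reads), which gave the read totals. Against these totals the FPKM denominator was 103.7% to 104.1% (cisplatin) and 97.4% to 98.7% (PBS). Counting error was not estimated separately and weighs most on members with few reads.

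The 13441 genes that reached an FPKM of 1 in 3 or more libraries were tested on log2(FPKM + 1) with limma 3.58.1 under R 4.3.3 (lmFit, eBayes with a trend, group as the single term). P-values were adjusted by Benjamini-Hochberg over all of them, and a call needed an adjusted p under 0.05 together with a change of 1 or more on the log2 scale, up or down. The fold threshold is that of the study's methods. The procedure was tested on simulated data. Ratios were compared by exact permutation over libraries.

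The members and lists were chosen with earlier results of these data known. The naming rule took all called members, a set of well-known members whatever their values, the 5 highest and 5 lowest log2 fold changes, and of each list at most 3 called genes. Alternatives were median-of-ratios, TPM, quantile and Y-linked scaling, a pseudocount of 0.1, filtering at 5 FPKM or not at all, limma voom on the recovered reads, no trend, protein-coding genes only, the replicate block and leaving out each library. Scaling by the recovered reads was added after seeing the data. Same-numbered libraries of the groups did not deviate together (correlations of -0.104, -0.0857 and -0.0236), so the numbers were not used as pairs. Promoter windows are RefSeq's. Coordinates are those of the deposited table, on mm10.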

Additional observations from a re-analysis of the deposited data

How the results depend on the processing

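The 7 members called lower stayed called lower in every alternative in which they were tested. A filter at 5 FPKM removed Dnajb13 and Hspb6 from the tested set and left 1 member called higher. Leaving out each library in turn gave 1 to 2 called higher, with Hspd1 lost without cisplatin replicate 1 or PBS replicate 2, and 7 to 8 called lower. A pseudocount of 0.1 gave 3 and 10 called, adding Dnajc27, Bag3, Dnajb2 and Hspa1b. TPM scaling gave 2 and 10 and limma voom 3 and 9. With the replicate number as a block, 2 members were called higher and 7 lower, and 20 and 30 passed the adjusted p alone, and no call changed. The same-numbered libraries share a number and no stated preparation.

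Scaling by the Y-linked genes gave 0 members called higher and 35 lower, and 1 higher and 60 lower at the adjusted p alone. The log2 fold changes that turned there were -0.62 for Bag4, -0.80 for Dnaja2, -0.25 for Dnajb5, -0.51 for Dnajb9, -0.25 for Dnajc11, -0.31 for Dnajc12, -0.46 for Dnajc13, -0.48 for Dnajc15, -0.78 for Dnajc17, -0.34 for Dnajc19, -0.23 for Dnajc2, -0.79 for Dnajc24, -0.57 for Dnajc3, -0.52 for Dnajc7, -0.11 for Dnajc9, -0.57 for Hsf1, -0.81 for Hsp90aa1, -0.83 for Hspa14, -0.80 for Hspa4, -0.72 for Hspa8, -0.65 for Hspa9, -0.20 for Hspe1 and -0.38 for Hsph1. The medians that turned there were -0.68 (mitochondrial list), -0.78 (co-chaperones), -0.81 (TRiC and prefoldin) and -0.090 (macrophage markers). The cause was not tested.

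The other changes of sign were of values near 0. Dnajb11 gave 0.064 with voom, 0.037 with quantile and 0.063 with recovered-read scaling, and -0.044 to 0.0059 without single libraries. Dnajb12 gave 0.081 with voom, 0.0078 with median-of-ratios, 0.076 with quantile and 0.076 with recovered-read scaling, and -0.036 to 0.033 without single libraries. Dnajc8 gave 0.032 with voom, 0.052 with quantile and 0.032 with recovered-read scaling, and quantile gave 0.0052 for Dnajb14 and 0.0008 for Hsf2. Without single libraries Dnajc17 ran from -0.086 to 0.16 and Dnajc24 from -0.030 to 0.12. The DNAJC median gave 0.018 with no filter, 0.0064 with median-of-ratios, 0.11 with quantile, 0.087 with voom and 0.073 with recovered-read scaling, and -0.049 to 0.029 without single libraries. The DNAJB median gave 0.021 with quantile. The ER list gave 0.028 with quantile, 0.059 with voom and 0.057 with recovered-read scaling. The median of all tested genes gave 0.019 with the filter at 5 FPKM, 0.010 with median-of-ratios, 0.10 with quantile, 0.086 with voom and 0.073 with recovered-read scaling, and -0.0023 to 0.0017 without single libraries. How far depth limits these results was not tested.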
